A study of Mus musculus with 15 samples.

Results

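The promoters of the genes of the MCM replication helicase were examined for how nucleosomes lie around their transcription start sites (TSSs). Each row of the promoter annotation carries a RefSeq identifier, and the 8 genes Mcm2, Mcm3, Mcm4, Mcm5, Mcm6, Mcm7, Mcm8 and Mcm10 were found by matching these identifiers to gene symbols, which gave 8 promoters, 1 per gene, of 25881 in all. Mcm2, Mcm5, Mcm7 and Mcm8 had a coverage score above the threshold of 100 that defined the 13559 high-coverage promoters. Mcm3, Mcm4, Mcm6 and Mcm10 lay just below it, with scores between 83.75 and 96.25, and are described beside the others but were tested only when the threshold was dropped. The coverage score counts fragments near the TSS and was lower at these 4 than at Mcm2 (239) or Mcm7 (473.5). There is 1 score per promoter, and the number of fragments behind a value in each library is not given.

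The study mapped nucleosomes with ChIP-MNase, in which formaldehyde-fixed chromatin in large pieces is recovered with an antibody and digested with micrococcal nuclease while still on the beads. H3K4me1, a histone mark of promoters and enhancers, was the target in dendritic cells (DCs) and in 3T3 fibroblasts, a mouse embryonic line; phosphorylated RNA polymerase II (pol-II) was the target in further libraries. DCs were differentiated from mouse bone-marrow progenitor lines in GM-CSF and were either resting or given LPS at 100 ng/ml for 1 h, while fibroblasts were either resting or given TNFα at 5 ng/ml for 1 h. For each of these 4 conditions 2 replicates were pooled before deposition, so the 4 pooled sets carry no replicate error. A further 8 single H3K4me1 libraries came from 3T3 fibroblasts: control cells and cells with a knockdown of the BAF remodelling complex, resting or given TNFα, with 2 libraries in each of the 4 groups. The knockdown used a stable short hairpin RNA against a sequence shared by the ATPases Brg1 and Brm, carried by a retroviral vector with GFP, and cells were sorted for high GFP. The amount of ATPase left was not analysed here. Stimulated fibroblasts also gave 2 libraries for pol-II phosphorylated at serine 7 (S7P) and 1 library for serine 5 (S5P). The libraries of a group are described as biological replicates, and no source used here says whether each came from its own culture.

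The MCM proteins Mcm2 to Mcm7 form a ring that is loaded onto replication origins in G1 phase and that unwinds DNA ahead of the replication fork in S phase. Mcm8 is a related helicase that works with Mcm9 in homologous recombination, and Mcm10 is an unrelated DNA-binding protein that helps to activate the loaded ring. Transcription of the ring genes is known to rise as cells leave quiescence, under the control of E2F transcription factors and the pocket proteins that restrain them. Active promoters of mammals commonly have a nucleosome-depleted region (NDR) upstream of the TSS, bordered by a +1 nucleosome downstream and a −1 nucleosome upstream.

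All 8 promoters were rich in CpG and 7 of them carried E2F motifs, which are shown here because E2F factors are the known regulators of these genes. In mm9 sequence within 200 bp of the TSS, all 8 met the usual criteria of a CpG island (over 50% G and C, and CpG at over 0.6 of the frequency expected from them), as did 56.2% of the high-coverage promoters. Between −300 and 100 bp, both strands were searched for 4 spellings of the E2F motif (TTTCCCGC, TTTCGCGC, TTTGCCGC and TTTGGCGC). The motif was present at 7 of the 8 promoters, the exception being Mcm10. It was present at 3.49% of the 25738 promoters with sequence, at 4.06% of the high-coverage promoters and at 6.08% of those in CpG islands. The letters CCAAT, on either strand, were present at all 8 promoters and at 43.9% of all promoters, and TATAAA was found at none of the 8 and at 15.5% of all promoters. The upstream stretches of 5 promoters follow in the direction of the gene, read from the mm9 genome, with E2F letters in capitals. They end at or before the position next to the TSS base, which is counted as 0, and before any annotated exon. For Mcm3 that end lies at −66 bp because an annotated transcript starts 65 bp upstream of the RefSeq TSS. Mcm10 is included as the promoter without E2F letters.

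Mcm3: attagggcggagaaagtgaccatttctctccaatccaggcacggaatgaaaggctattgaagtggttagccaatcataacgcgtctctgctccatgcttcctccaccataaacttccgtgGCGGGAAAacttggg
Mcm4: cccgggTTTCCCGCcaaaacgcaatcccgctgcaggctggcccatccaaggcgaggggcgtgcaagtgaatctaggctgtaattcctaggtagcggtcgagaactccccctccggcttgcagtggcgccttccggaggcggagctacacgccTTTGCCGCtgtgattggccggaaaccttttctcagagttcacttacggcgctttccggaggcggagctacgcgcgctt
Mcm5: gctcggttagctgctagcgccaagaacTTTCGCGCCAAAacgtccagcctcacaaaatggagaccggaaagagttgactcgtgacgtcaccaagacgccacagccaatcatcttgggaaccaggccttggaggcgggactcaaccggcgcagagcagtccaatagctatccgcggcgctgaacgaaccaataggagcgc
Mcm6: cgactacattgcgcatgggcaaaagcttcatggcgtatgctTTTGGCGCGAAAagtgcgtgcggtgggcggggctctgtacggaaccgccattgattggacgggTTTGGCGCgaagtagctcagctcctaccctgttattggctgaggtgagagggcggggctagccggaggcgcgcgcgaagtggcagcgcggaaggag
Mcm10: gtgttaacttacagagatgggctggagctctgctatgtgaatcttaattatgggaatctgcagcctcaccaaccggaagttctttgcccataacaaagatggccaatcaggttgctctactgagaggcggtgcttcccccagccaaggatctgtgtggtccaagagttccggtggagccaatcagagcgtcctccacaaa

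The stretches cover chr1:20810360-20810494 for Mcm3, chr16:15637494-15637723 for Mcm4, chr1:130256234-130256433 for Mcm6 and chr2:4933838-4934037 for Mcm10, all on the minus strand, and chr8:77633228-77633426 for Mcm5 on the plus strand. Where 2 matches overlapped, on opposite strands, they were counted as 1 site, which left 12 sites in the 7 promoters, 9 of them upstream of the TSS. The double sites of Mcm2, Mcm5 and Mcm6 had 12 letters each and are set side by side because they differ little:
Mcm2: TTTCGCGCGAAA
Mcm5: TTTCGCGCCAAA
Mcm6: TTTGGCGCGAAA
That of Mcm5 lay at −173 to −162 bp and that of Mcm6 at −159 to −148 bp, both upstream, whereas that of Mcm2 lay downstream of the TSS, at 82 to 93 bp (chr6:88848681-88848692). Mcm7 held a site across the TSS, at −5 to 2 bp, and another at −186 to −179 bp. The only site of Mcm8 lay at −156 to −149 bp (chr2:132641916-132641923). A match of letters describes the sequence and does not show binding.

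Occupancies are given relative to the mean of each library over the high-coverage promoters, which is 1. The 15 libraries differed in how many of their 10 bp bins were filled, from 63.5% to 90.2% at high-coverage promoters, and from 58.4% to 88.1% at the MCM promoters in the H3K4me1 libraries; read depth is unknown because the values are relative. The order of rows was checked on neighbouring promoters: where TSSs on opposite strands lay 50 to 500 bp apart, the shifted profiles had a median correlation of 0.996 (952 pairs), against 0.0127 with a random row. Expression values come from separate public RNA-seq sets of each cell type, so they describe those sets and give no check of the labels of the 15 libraries. In them, the 10 DC markers had a median percentile of 97.7 in DCs and 39.6 in fibroblasts, and the 10 fibroblast markers had 99.3 in fibroblasts and 49.99 in DCs. Flt3 and Cd86 were listed at 0 in fibroblasts and Twist1 at 0 in DCs, whereas the fibroblast marker Fn1 also stood above 99.3% of promoters in DCs and the DC marker Flt3 above only 47.5%.

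All 8 genes had expression above 0 in the public sets of both resting cell types. The levels are FPKM values, whose scales differ, so only the rank of a gene within its cell type is compared. In fibroblasts, Mcm6 (26.9 FPKM) and Mcm4 (23.8 FPKM) stood highest, above 91.8% and 90.6% of promoters. Mcm3 (13.8 FPKM) and Mcm2 (11.8 FPKM) followed, above 84.2% and 82.1%. Mcm5 (8.49 FPKM) and Mcm7 (5.89 FPKM) came next, and Mcm10 (3.45 FPKM) and Mcm8 (2.73 FPKM) were lowest, above 66.4% and 64.1%. In DCs the order differed: Mcm3 (2.30 FPKM) was highest, above 88.0% of promoters, followed by Mcm6 (1.78 FPKM). Mcm10 (0.348 FPKM) and Mcm8 (0.101 FPKM) were again the lowest, above 63.8% and 55.2%. There is 1 value per cell type, and fewer cells of a type and less RNA per cell cannot be told apart in bulk values.

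Averaged over the 8 promoters, occupancy dipped upstream of the TSS and peaked downstream in every pooled set. In the NDR window, from −150 to 0 bp, mean occupancy was 0.368 in resting DCs, 0.541 after LPS, 0.439 in resting fibroblasts and 0.2497 after TNFα. The same window held 0.568, 0.542, 0.519 and 0.472 over the 6458 promoters active in fibroblasts, and 0.708, 0.689, 0.693 and 0.666 over all high-coverage promoters. The mean over the 8 MCM promoters was thus below that of the high-coverage promoters in all 4 pooled sets, and level with that of the active promoters after LPS. It was also lower when the 8 single fibroblast libraries were averaged, at 0.535 against 0.640 and 0.755. The 4 promoters below the coverage threshold contributed more to the dip (0.114 to 0.309 between sets) than the 4 above it (0.385 to 0.798). Both comparison sets hold only high-coverage promoters. The 4 high-coverage MCM promoters alone held 0.426, 0.798, 0.597 and 0.385, in the same order. Their mean was above that of all high-coverage promoters after LPS. It was above that of the active promoters after LPS, in resting fibroblasts and over the 8 single libraries (0.658). The highest downstream bin lay at 135 bp in resting DCs and 155 bp in resting fibroblasts, where the mean reached 1.79 and 2.43. A mean over 8 promoters is rougher than a mean over a large set, and no test was made of these differences.

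**Figure D1:**
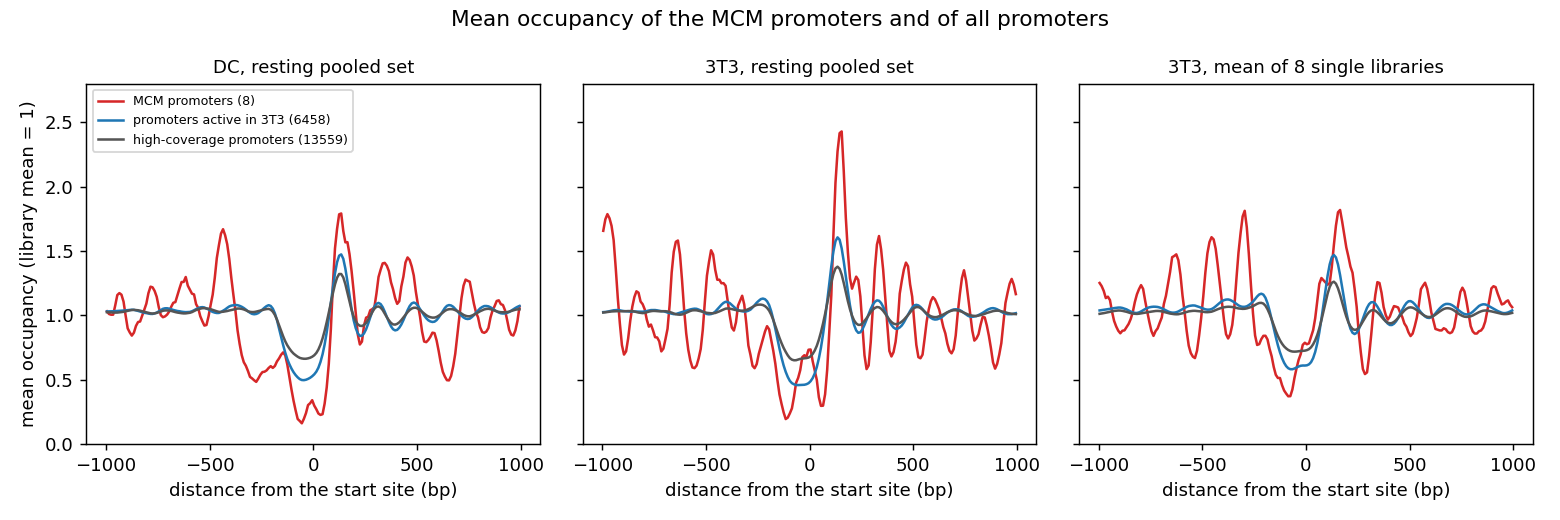
Mean nucleosome occupancy (y axis, library mean = 1) against distance from the TSS in bp (x axis), in resting DCs, in resting 3T3 fibroblasts and over the 8 single fibroblast libraries, for the 8 MCM promoters (red), promoters active in 3T3 (blue) and all high-coverage promoters (grey). The red line falls below both others upstream of the TSS and rises above them near 150 bp downstream, and it swings more everywhere because it averages 8 promoters.

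In the pooled sets the ring genes differed among themselves in how closely their profiles followed that of active promoters. No test was made of this, and their ranges overlapped in the single H3K4me1 libraries. Each promoter was given a patterning level, the sum of its occupancy weighted by the mean profile of active promoters of that cell type, which is higher where nucleosomes stand in the usual places and near 0 where they do not. It was also given an NDR score, the log2 ratio of occupancy in the NDR window to occupancy from −1000 to −500 bp, which falls to about −3.5 when the window is empty. Across the high-coverage promoters the median patterning level lay between 3.44 and 3.77 in the pooled sets, and the median NDR score between −0.67 and −0.56.

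Mcm5, a ring subunit, had the highest patterning level of the promoters above the threshold in each pooled set. Its patterning level was 13.5 in resting DCs, 14.1 after LPS, 13.2 in resting fibroblasts and 13.3 after TNFα, above 87.7% to 93.2% of high-coverage promoters. Its NDR score was −3.39, −3.15, −3.24 and −3.38 in the same order, so the window was empty or nearly so in each pooled set. The +1 peak stood at 125, 155, 135 and 145 bp, and the stretch with occupancy under 0.25 around the TSS spanned 310, 350, 210 and 340 bp. Its E2F site at 32 to 39 bp was unoccupied in all 4 pooled sets. The single libraries were far more scattered: the patterning level ran from −3.09 to 23.1 with a median of 6.62 (n = 8), and the window was empty in 3 of 8. In the average of the 8 single libraries its NDR score was −0.39, equal to the median of the high-coverage promoters. The profiles of resting DCs and resting fibroblasts correlated at Mcm5 with r = 0.27, higher than at 46.8% of high-coverage promoters.

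Mcm2, also a ring subunit, showed a different arrangement. Its patterning level was low, at 1.21, 2.95, 1.83 and 3.61 in resting DCs, LPS, resting fibroblasts and TNFα, yet several of its peaks stood at nearly the same places in both cell types. Upstream peaks lay at −515 to −535 bp, at −355 bp and at −155 to −165 bp in all 4 pooled sets, and a downstream peak lay at 195 bp in 3 sets and 215 bp in resting fibroblasts. Farther downstream they differed: the next peak lay at 395 bp in resting DCs, 365 bp after LPS, 445 bp in resting fibroblasts and 395 bp after TNFα, and LPS had a further peak at 85 bp. The −1 nucleosome, with occupancies of 3.24, 4.02, 3.03 and 2.66, reached into the NDR window, and the empty stretch lay across the TSS instead, from −80 to 140 bp in resting DCs and −80 to 90 bp in resting fibroblasts. The profiles of resting DCs and resting fibroblasts correlated with r = 0.70 over 200 bins, higher than at 98.5% of high-coverage promoters, where the median was 0.28. Between the pooled resting fibroblasts and the average of the 8 single libraries r was 0.88, higher than at 99.0% of high-coverage promoters. These libraries share the sequence and its digestion, and the correlations are descriptions. The coverage score of Mcm2 was higher than at 79.7% of promoters, and the part of coverage in these correlations was not tested.

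Mcm4, a ring subunit, had patterning levels of 7.98, 11.5, 11.7 and 11.1 in resting DCs, LPS, resting fibroblasts and TNFα. Its NDR window was empty in 3 of these sets and held 0.609 in resting DCs, where a peak of 2.14 stood at −135 bp. The site at −78 to −71 bp was unoccupied in all 4 sets, while that at −224 to −217 bp reached 1.16 in 1 of them. The gene Prkdc, which encodes the catalytic subunit of a DNA repair kinase, starts 467 bp upstream on the other strand, so the profiles of both promoters share most of their bases. Prkdc had patterning levels of 4.02, −0.27, −0.03 and 5.50. Its NDR score was −2.03 after TNFα and between −0.13 and 0.51 in the other 3 sets.

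Mcm6, a ring subunit with the highest fibroblast expression of the 8, varied more between sets than Mcm4. Its patterning level was 13.2 in resting DCs, 6.14 after LPS, 8.95 in resting fibroblasts and 0.151 after TNFα. In resting fibroblasts a nucleosome of height 2.25 stood at −35 bp inside the NDR window, whereas in DCs the window held 0.167 at rest and 0.372 after LPS. The profiles of resting and TNFα-treated fibroblasts correlated with r = −0.31, lower than at nearly all high-coverage promoters (percentile 0.111), with 1 pooled set per condition and a coverage score of 92.5. The double E2F site at −159 to −148 bp held 0.187 to 1.51 in the pooled sets and the site at −96 to −89 bp held 0 to 0.318.

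Mcm3, a ring subunit, had patterning levels of 7.18, 0.215, 10.6 and 4.55 in resting DCs, LPS, resting fibroblasts and TNFα. Its NDR score was −1.82, −0.63, −3.68 and −3.15, so in the pooled sets the window was emptier in fibroblasts than in DCs. After LPS a nucleosome of height 2.70 stood at −15 bp. After TNFα a peak of 11.0 at −575 bp took up most of the upstream signal, and only 55.0% of bins were filled, which limits what that set shows.

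Mcm7, the remaining ring subunit, had the highest coverage score, and its pooled sets differed between the cell types in patterning level and downstream peak. With 1 pooled set per condition, no test of this was made. Its NDR score also differed within each cell type. It was −3.51 at rest and −0.55 after LPS in DCs, and −0.50 at rest and −3.04 after TNFα in fibroblasts. The profiles of resting DCs and resting fibroblasts correlated with r = 0.16, higher than at 28.9% of high-coverage promoters. Within fibroblasts its profile recurred more: r was 0.68 between the pooled resting set and the average of the 8 single libraries and 0.71 between the 2 S7P libraries, higher than at 94.9% and 96.5% of high-coverage promoters. Between the pooled resting and TNFα sets it was 0.33, higher than at 53.2%. In DCs its patterning level was 6.65 at rest and 5.13 after LPS, while fibroblasts had −0.89 at rest and 1.86 after TNFα. In DCs the first downstream peak stood at 165 bp at rest and 205 bp after LPS, while in the pooled fibroblast sets it stood at 5 bp and 45 bp. Single fibroblast libraries had it at 35 to 265 bp with H3K4me1 and at 105 to 115 bp with pol-II. The E2F site across the TSS lay under the peak of the pooled resting fibroblasts, with 3.66 as its highest occupancy. The site at −186 to −179 bp was all but empty in all 4 pooled sets (at most 0.00766). Transcripts annotated in the same build start up to 560 bp upstream of the RefSeq TSS of Mcm7, and Ap4m1, which encodes an adaptor protein subunit, starts 160 bp upstream on the other strand in the promoter annotation. The 2 promoters therefore read the same nucleosomes from opposite sides. Ap4m1 had patterning levels of 5.75, 0.287, 4.61 and 5.78.

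Mcm8 was not depleted over the NDR window as a whole. Its NDR score was −0.27, 0.54, 0.07 and −0.02 in resting DCs, LPS, resting fibroblasts and TNFα, and the NDR window held 0.943, 1.63, 1.09 and 1.07. A peak stood in the window between −55 and −15 bp in each set. Upstream of that peak lay a stretch with occupancy under 0.25. It spanned 50 bp in resting DCs (−170 to −120 bp), 250 bp after LPS (−360 to −110 bp), 60 bp in resting fibroblasts (−170 to −110 bp) and 360 bp after TNFα (−430 to −70 bp). In each set this stretch took in part of the window. The E2F site at −156 to −149 bp lay in the stretch, with no occupancy in any pooled set. Transcripts annotated in the same build start up to 195 bp upstream of the RefSeq TSS of Mcm8, and the window is placed by the RefSeq TSS. Patterning levels were 1.16, −4.07, 3.94 and −1.08. Trmt6, a tRNA methyltransferase subunit that starts 282 bp upstream on the other strand, had a patterned promoter, with levels of 9.37, 12.1, 7.69 and 9.06 and NDR scores between −3.39 and −1.12.

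Mcm10, the promoter without E2F letters, had the highest patterning level of the 8 in every pooled set but resting DCs, where that of Mcm5 was higher. Its levels were 13.3, 16.4, 15.02 and 13.99 in resting DCs, LPS, resting fibroblasts and TNFα, above 89.5% to 96.5% of high-coverage promoters. The +1 peak stood at 175, 125, 165 and 145 bp, with an upstream peak between −435 and −395 bp in each set. The NDR window was empty after LPS and TNFα and held 0.206 and 0.360 in the resting sets, where a small peak stood at −65 bp. In the average of the 8 single libraries its patterning level was 13.0, above 96.2% of high-coverage promoters, and its NDR score was −1.89, below all but 6.64% of them. The profiles of resting DCs and resting fibroblasts correlated with r = 0.74, higher than at 99.2% of high-coverage promoters. Between single H3K4me1 libraries of the same condition the mean r was only 0.06, higher than at 16.0% of high-coverage promoters. Mcm10 itself lies below the coverage threshold, with a score of 96.25. The single libraries were scattered, with a patterning level from −2.93 to 33.9 and a median of 9.88 (n = 8).

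**Figure D2:**
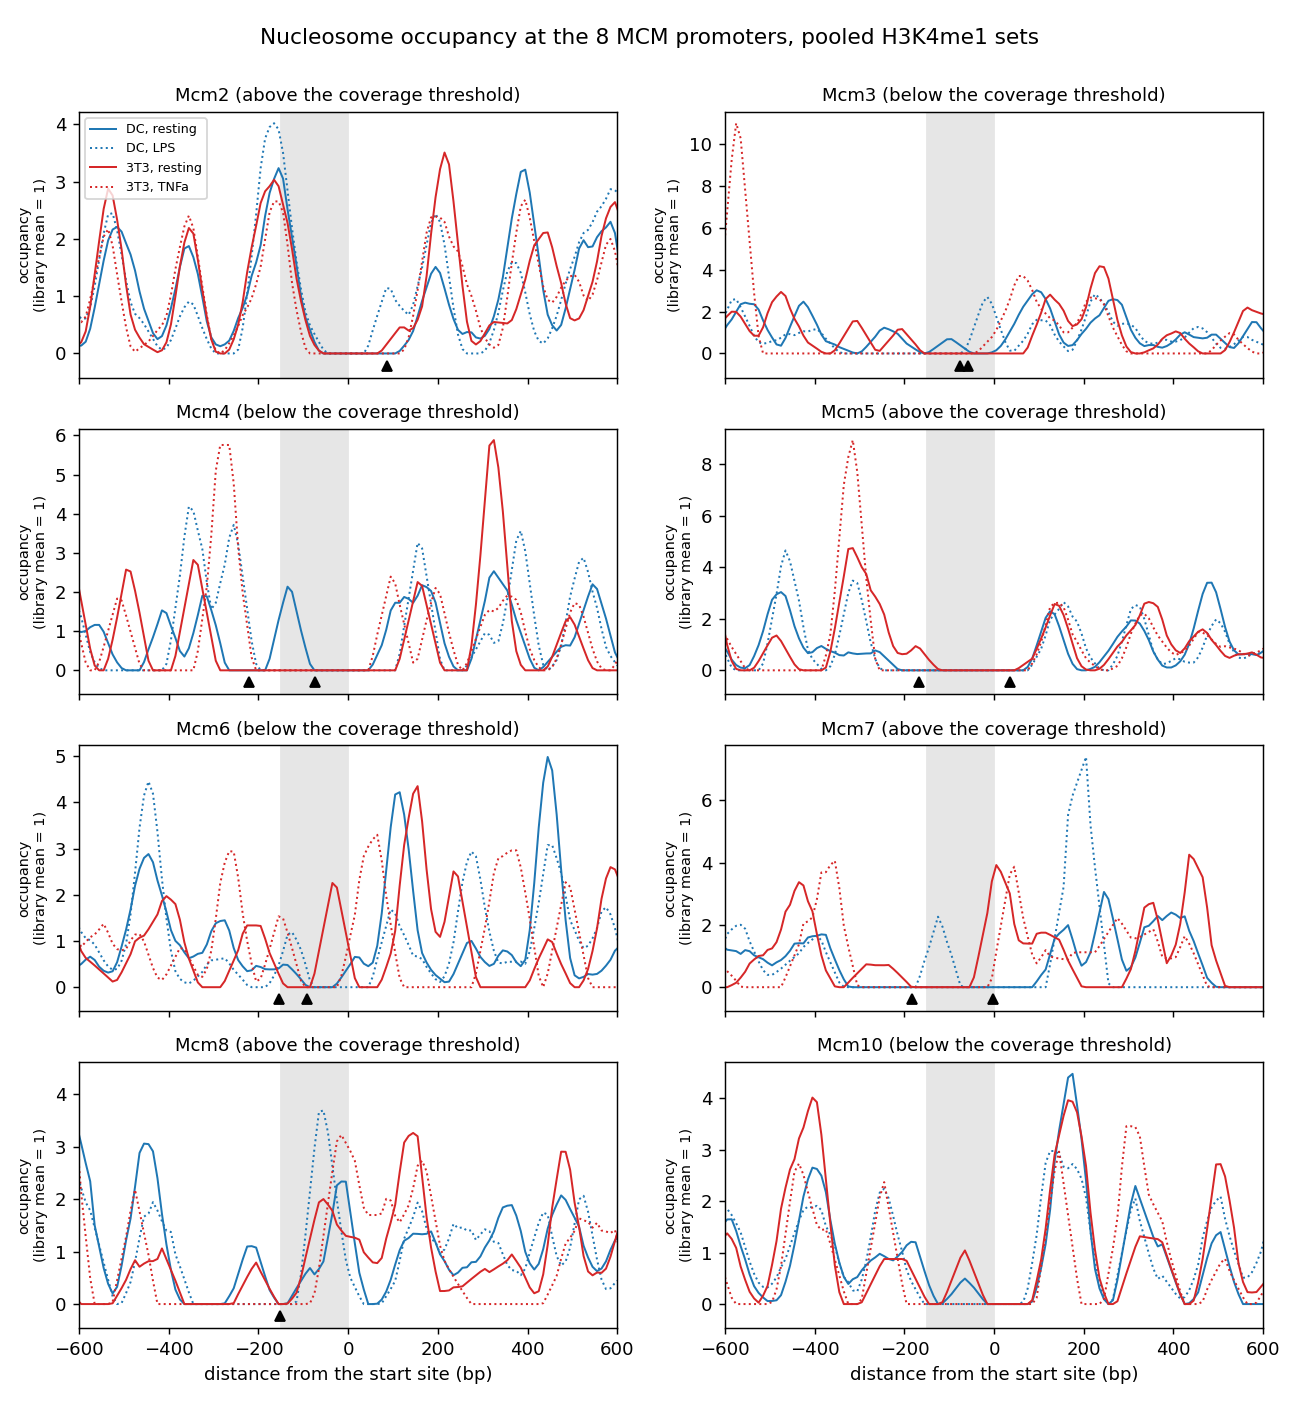
Nucleosome occupancy (y axis, library mean = 1; the scale differs between panels) against distance from the TSS in bp (x axis) at each MCM promoter in the 4 pooled H3K4me1 sets: DCs in blue and 3T3 fibroblasts in red, resting as full lines and stimulated as dotted lines. The grey band is the NDR window from −150 to 0 bp and black triangles mark E2F sites; the Mcm2 peak at −155 to −165 bp is shared by all 4 sets, the Mcm5 window is empty or nearly so, and that of Mcm8 holds a peak.

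Occupancy over the E2F letters was read beside that of the whole region. Of the 12 sites, 8 had an occupancy under the library mean in all 4 pooled sets, and 3 of these were at 0 in all 4: the downstream site of Mcm5, the site of Mcm8 and the nearer site of Mcm4. Those of Mcm5 and Mcm4 were each read from 1 bin. Most single H3K4me1 libraries were also at 0 at these sites, but some reached up to 1.57 (Mcm5), 1.55 (Mcm8) and 3.82 (Mcm4). Of all bins between −300 and 100 bp, 53.1% at the MCM promoters and 31.8% at the high-coverage promoters were under the library mean in all 4 sets, and 18.1% and 5.96% were at 0 in all 4. Sites under the mean were thus 66.7% and sites at 0 were 25% of the 12, and no test was made of the difference from the other bins. Sites of Mcm2, Mcm4, Mcm6 and Mcm7 rose above the mean in 1 pooled set each. Of the 8 promoters 4 lie below the coverage threshold, and the part of coverage in this share was not tested. In the average of the 8 single libraries, the sites ranged from 0.0258 at the upstream site of Mcm7 to 1.92 at its site across the TSS.

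BAF knockdown was tested in the 8 single libraries to ask whether nucleosome placement in fibroblasts depends on the remodeller. Both knockdown libraries of replicate 1 were deposited under names with another code than the other 6 libraries, which the labels do not explain. None of the 4 high-coverage MCM promoters passed the test, and neither did any other promoter (0% of 13559 at an adjusted p under 0.05 for the patterning level and 0% for the NDR score; limma with Benjamini-Hochberg adjustment). At an unadjusted p under 0.05 there were 799 promoters (5.89%) for the patterning level and 770 (5.68%) for the NDR score, and 0 of the 4 MCM promoters for either. The patterning level of Mcm5 was 11.6 and 5.21 in resting knockdown cells and 1.41 and 15.8 in stimulated ones, against 0.534 and 8.04 in resting and −3.09 and 23.1 in stimulated control cells. The groups overlapped, and the difference was 1.33 ± 6.69 (SE; adjusted p = 0.998). For Mcm2 the difference was −0.58 ± 2.36 (SE; adjusted p = 0.992), the smallest error of the 4. For Mcm7 and Mcm8 it was 0.517 ± 3.67 and 0.22 ± 4.39 (SE), with adjusted p = 1 for both by limma. Without both knockdown libraries of replicate 1, again 0 promoters were called, and the differences of Mcm2, Mcm5, Mcm7 and Mcm8 were 1.35 ± 3.02, 3.33 ± 8.91, 1.57 ± 3.22 and −2.60 ± 4.41 (SE; adjusted p between 0.94 and 0.972, limma), so those of Mcm2 and Mcm8 changed sign. Differences of several units could therefore not have been detected at single promoters.

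With the coverage threshold dropped, the other 4 MCM promoters could be tested among all 25881, and again 0 of the 8 and 0% of all promoters were called by limma. At an unadjusted p under 0.05 there were 0 of the 8 for the patterning level (6.17% of all promoters) and 1, Mcm3, for the NDR score (6.15%). Its NDR window was empty in all 4 knockdown libraries, with NDR scores of −3.58 and −3.76 at rest and −3.58 and −3.73 after TNFα. The control libraries held −1.35 and −2.03 at rest and 0.54 and 0.57 after TNFα, so the groups did not overlap. The difference was −3.10 ± 0.24 (SE; adjusted p = 0.0935, limma). An empty window leaves the score at a floor set by the pseudocount, where the knockdown scores could vary only with the flank. Single libraries filled only 46% to 63.5% of bins at Mcm3. The pooled sets of 3T3 fibroblasts, which had no knockdown, also had low scores at Mcm3 (−3.68 and −3.15), as did S5P (−3.21). The 2 S7P libraries differed from each other, at 1.51 and −3.19. The patterning level of Mcm3 did not overlap between knockdown and control libraries either. It ran from 4.08 to 11.1 in knockdown and from −10.3 to 3.71 in control libraries, with a difference of 8.57 ± 3.75 (SE; adjusted p = 0.803, limma). The other 7 MCM promoters overlapped on both measures; among all promoters, the groups did not overlap at 2.81% for the patterning level and 2.63% for the NDR score.

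**Figure D3:**
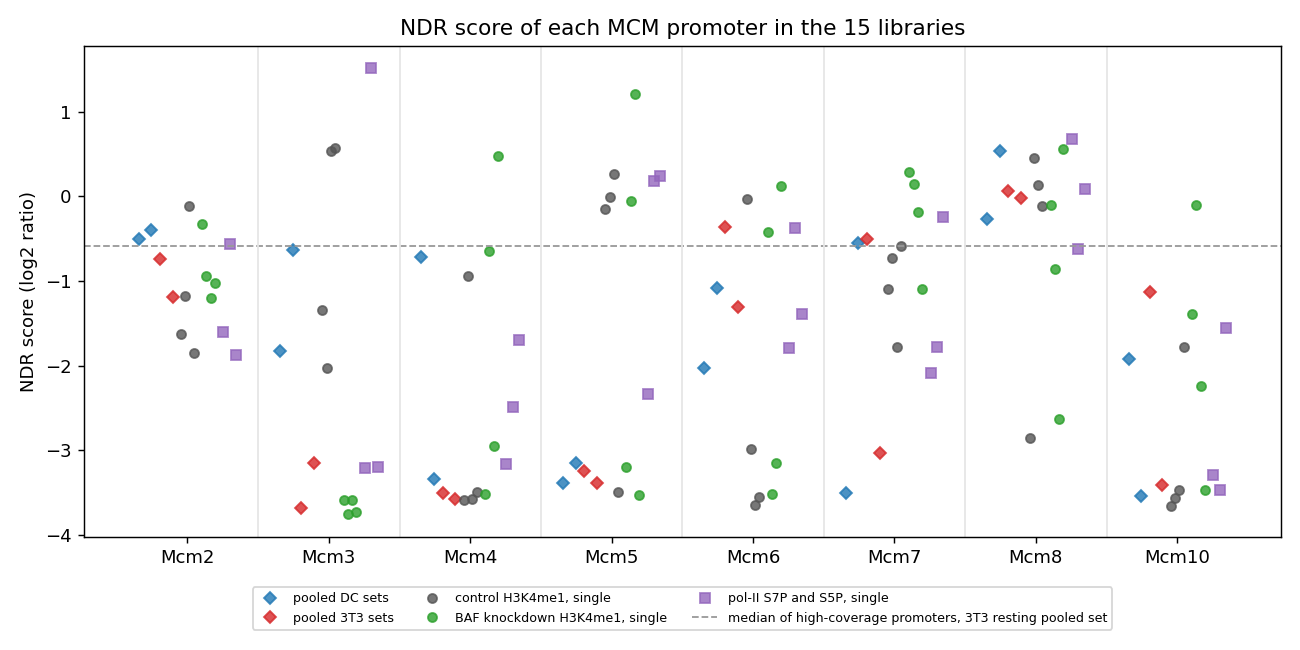
NDR score (log2 ratio, y axis) of each MCM promoter (x axis) in the 15 libraries, 1 point per library, with diamonds for pooled sets, circles for single H3K4me1 libraries and squares for pol-II libraries. Points near −3.5 have an empty or nearly empty window. At Mcm3 the 4 knockdown libraries lie there together with the pooled resting 3T3 set. The pooled TNFα set lies at −3.15 with 0.12 in the window, while the 4 control libraries lie between −2.03 and 0.57.

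TNFα, a cytokine that activates NF-κB, was tested in the same 8 libraries. None of the 4 high-coverage MCM promoters and none of the 13559 promoters passed (0% by limma for each measure, with 779 promoters or 5.75% at an unadjusted p under 0.05 for the patterning level and 855 or 6.31% for the NDR score). The differences of Mcm2, Mcm5, Mcm7 and Mcm8 in patterning level were 0.59 ± 2.36, 2.97 ± 6.69, 4.59 ± 3.67 and −3.94 ± 4.39 (SE; adjusted p between 0.901 and 0.986). With the threshold dropped none of the 8 was called (0% of all promoters), and Mcm3 had the smallest adjusted p (NDR score, 1.13 ± 0.24 SE, adjusted p = 0.412, limma). All 4 knockdown libraries had an empty window at Mcm3, so their scores lay at the floor set by the pseudocount in this comparison too. Mcm3 was 1 of the 8 with an unadjusted p under 0.05 for the NDR score (6.41% of all promoters), and there was none for the patterning level (6.39%). All 8 promoters overlapped between resting and stimulated libraries on both measures, while the groups did not overlap at 2.68% and 2.69% of all promoters. In the pooled sets, the patterning level moved by less than 1 unit upon TNFα at Mcm4 and Mcm5 and fell from 8.95 to 0.151 at Mcm6, and upon LPS it fell from 13.2 to 6.14 at Mcm6 and rose from 13.3 to 16.4 at Mcm10. Upon TNFα it also fell at Mcm3 (10.6 to 4.55) and Mcm8 (3.94 to −1.08) and rose at Mcm7 (−0.89 to 1.86). Upon LPS it also fell at Mcm3 (7.18 to 0.215) and Mcm8 (1.16 to −4.07) and rose at Mcm4 (7.98 to 11.5). The pooled sets have no replicate error. Single libraries of 1 condition differed by more than the TNFα moves at Mcm4 and Mcm5 and the LPS move at Mcm10. At Mcm6 they differed by more than the fall upon TNFα in 3 of the 4 groups of single libraries. All single libraries are of fibroblasts and give no spread for DCs.

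Whether the response to TNFα differed between knockdown and control cells was tested as an interaction. No promoter passed (0% for each measure), and 766 promoters (5.65%) for the patterning level and 818 (6.03%) for the NDR score had an unadjusted p under 0.05, with 0 of the 4 MCM promoters. With the threshold dropped, Mcm6 had an unadjusted p under 0.05 for the patterning level. Its level was 1.88 and 1.35 in resting control cells and 29.8 and 18.5 after TNFα, against 5.99 and 19.7 in resting knockdown cells and 6.46 and −3.02 after TNFα. The interaction was −33.6 ± 9.14 (SE; adjusted p = 0.772, limma). The 2 pooled 3T3 sets went the other way from the control libraries at Mcm6, from 8.95 to 0.151. Mcm3 and Mcm10 had an unadjusted p under 0.05 for the NDR score, with interactions of −2.23 ± 0.47 and −3.10 ± 1.15 (SE; adjusted p = 0.421 and 0.744, limma). At Mcm3 the knockdown libraries, resting and stimulated, all lay at the floor of the score. At all promoters 6.33% and 6.39% were below that limit for the patterning level and the NDR score.

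**Figure D4:**
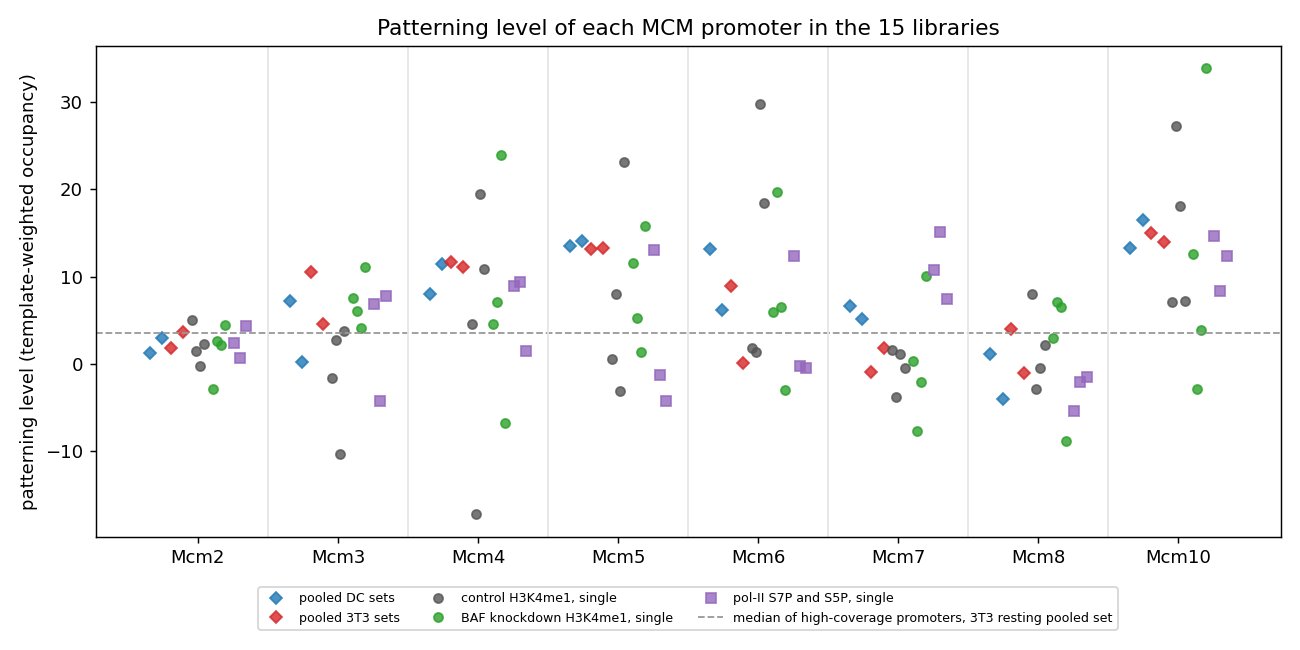
Patterning level (y axis, occupancy weighted by the profile of active promoters) of each MCM promoter (x axis) in the 15 libraries, 1 point per library, with diamonds for pooled sets, circles for single H3K4me1 libraries and squares for pol-II libraries. The pooled sets lie close together at Mcm5 (13.2 to 14.1) and Mcm10 (13.3 to 16.4), while single libraries spread from −17.2 to 23.9 at Mcm4.

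Phosphorylated pol-II marks promoters engaged in transcription, and its libraries were compared with the H3K4me1 libraries of stimulated fibroblasts that served as controls of the knockdown. The pol-II libraries are not labelled as coming from those control cells, and they were sequenced in paired-end and the H3K4me1 libraries in single-end mode, so cells, antibody and sequencing cannot be told apart. With 2 libraries against 2, none of the 4 high-coverage MCM promoters and 0% of 13559 promoters passed for either measure, and 840 promoters (6.20%) and 1389 (10.2%) had an unadjusted p under 0.05 for the patterning level and NDR score. Mcm7 had patterning levels of 15.1 and 7.41 with S7P and 10.7 with S5P, against 1.18 and −0.46 in the control libraries, which did not overlap. Its difference for S7P was 10.9 ± 4.17 (SE; adjusted p = 0.743, limma). Mcm6 moved the other way, with −0.19 and −0.46 with S7P against 29.8 and 18.5 in the control libraries, a difference of −24.4 ± 4.91 (SE; adjusted p = 0.676, limma, threshold dropped). The pooled H3K4me1 set of stimulated fibroblasts had 0.151 at Mcm6, close to the S7P libraries. Without the threshold, 1 of the 8 for the patterning level (7.30% of all promoters) and 2, Mcm4 and Mcm6, for the NDR score (10.4%) had an unadjusted p under 0.05, and 0% were called. The S7P and control libraries did not overlap at 4 of the 8 for the patterning level, higher at Mcm7 and lower at Mcm4, Mcm6 and Mcm8, and at Mcm4 and Mcm6 for the NDR score, which was higher. At all promoters the shares were 35.3% and 37.3%. Mcm5 had −1.29 and −4.30 with S7P but 13.0 with S5P, close to its pooled H3K4me1 sets. Mcm10 had 8.37 and 12.4 with S7P and 14.6 with S5P, and Mcm8 had −2.11 and −1.52 with S7P and −5.43 with S5P. The study's reporting summary lists 2 S5P replicates, but the data hold 1 S5P library, and its label does not say whether replicates were pooled. It could not be tested.

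Other genes of DNA replication were read from lists of origin licensing, helicase activation and replication fork factors and of E2F and pocket proteins. None of their promoters passed the test in any of the 4 comparisons (0% by limma), and of their 48 high-coverage promoters those with an unadjusted p under 0.05 numbered at most 3 of 18, 2 of 12, 2 of 10 and 2 of 8 per list and measure, beside 5.65% to 10.2% of all high-coverage promoters. In resting fibroblasts the median patterning level was 5.12 over 10 origin licensing promoters, 10.4 over 12 of helicase activation, 8.36 over 18 of the replication fork and 2.76 over 8 of E2F and pocket proteins. The median was 2.89 over the 4 high-coverage MCM promoters and 3.51 over all. In the same set an NDR score under −1 was found at 6 of 10 origin licensing, 9 of 12 helicase activation, 11 of 18 replication fork, 3 of 8 E2F and pocket protein and 1 of the 4 MCM promoters, against 38.3% of all. The MCM count was 2 of 4 in resting DCs, 1 of 4 after LPS and 3 of 4 after TNFα, against 36.8%, 39.8% and 42.6% of all. In origin licensing, a start of Orc2, an origin recognition subunit, was highest (14.9), Mcmbp, which encodes a binding partner of the MCM proteins, followed (11.8), and another start of Orc2 and Cdc6, a loader of the ring, were lowest (−0.22 and 0.736). In helicase activation, Dbf4, the activator of the Cdc7 kinase, and Gins4, a subunit of the active helicase, were highest (18.0 and 15.2), and Timeless and Cdc45 were lowest (−1.18 and 3.20). At the replication fork, Pold2 and Rpa3 were highest (15.2 and 14.6) and Pole3 and Lig1 lowest (−10.1 and −3.15). Among E2F and pocket proteins, E2f2 and E2f4 were highest (11.9 and 11.6) and E2f1 and Tfdp2 lowest (−7.07 and −0.46).

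The promoters most like the mean profile of the 3 high-coverage ring genes Mcm2, Mcm5 and Mcm7 over 800 bins of the 4 pooled sets were those of Apip (r = 0.44), D8Ertd738e (r = 0.43), Jagn1 (r = 0.43), B4galt1 (r = 0.43) and 9330159M07Rik (r = 0.43). The median r over high-coverage promoters was 0.04, and 1% of them had an r above 0.31. The 3 genes themselves, which make up that mean, had r between 0.47 and 0.63.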

How the data were processed

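ChIP-MNase values of 15 mouse libraries were used. Per the study's methods and the submitters' processing notes, reads were aligned to mm9 and fragments counted in 10 bp bins. The notes name Bowtie2 and bedtools, whereas the methods name bowtie as the aligner. The authors then expressed counts relative to the surrounding region and smoothed them over neighbouring bins. What was deposited is therefore a relative occupancy signal, given in 200 bins around each TSS and without read counts, and empty bins were read as 0. The deposited annotation also holds a coverage score (a signal), expression in FPKM before stimulation, from public RNA-seq sets, and log2 expression differences upon stimulation that the authors computed, which were not used.

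Here each library was divided by its mean over high-coverage promoters (score above 100). Promoters with expression above 0.02 of the mean were called active. The NDR score used a pseudocount of 0.1. Peaks were taken after leaving out the lowest 20% of prominences. Comparisons used limma 3.58.1 in R 4.3.3 on group means, tested on simulated data, with Benjamini-Hochberg adjustment over all tested promoters and a threshold of 0.05; pooled sets and S5P had no test. Profiles were handled with Python 3.11.15 and scipy 1.17.1. RefSeq identifiers gave a symbol for 24920 of 25881 rows. Sequence and annotated starts came from NCBIM37 (mm9) with GENCODE vM1. Every MCM promoter, the 2 highest and 2 lowest promoters of each replication list, the 5 most alike promoters and opposite-strand neighbours within 1000 bp were named by rule. The limit of 0.25 for empty stretches was set after values were seen. The MCM genes and the lists were chosen with earlier results of these data known. Alternatives were occupancies as deposited, their square root, no coverage threshold, a replicate block, leaving out libraries, limma with trend, other NDR settings and other peak prominences.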

Additional observations from a re-analysis of the deposited data

How the results depend on the processing

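Under every alternative run, 0 promoters were called in each of the 4 comparisons and both measures (108 counts, all 0), and leaving out each library in turn gave 0 to 0. All 540 recomputed results, those of the 4 high-coverage MCM promoters and the counts, kept their side of the threshold. The adjusted p of MCM promoters (limma) was no lower than 0.743 as reported and 0.0935 (Mcm3, coverage threshold dropped) in any alternative. Mcm3, Mcm4, Mcm6 and Mcm10 were fitted only with the coverage threshold dropped, so the other alternatives were not run for them. Leaving out 1 library changed the sign of 49 of 224 differences at the 4 high-coverage MCM promoters, so directions of single promoters are not stable. Replicate numbers did not pair the libraries: deviations of same-numbered libraries correlated between -0.00751 and 0.0211 in 12 pairs of groups and measures. With a replicate block, 0 promoters were called, and the knockdown difference of Mcm5 in patterning level was 1.33 ± 5.64 (SE; adjusted p = 0.989, limma).

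Patterning levels of the pooled sets were 1.61 to 1.63 times higher with occupancies as deposited, with no change of sign among 32. With the lowest 40% of prominences left out, 4 of 32 positions of the +1 peak and 3 of 32 of the −1 peak moved. Coverage limits what can be read at the MCM promoters: 4 of 8 lie below the coverage threshold, and single libraries leave many bins empty.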
